A study of Mus musculus with 3 samples.

Results

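The cytochrome P450 genes of families 1 to 3 were measured in nuclei of frozen mouse liver. The genes were taken by symbol, as Cyp1, Cyp2 or Cyp3 followed by a letter and a number, without the Cyp2b genes, Cyp2c70 and pseudogenes. Of 54 such symbols among the 32285 genes in the files, 40 had at least 50 unique molecular identifiers (UMIs) summed over the libraries and were analysed. The lowest of these were Cyp1b1 with 60 UMIs and Cyp2d34 with 75, and the highest of the 14 left out was Cyp2d12 with 40. The 40 genes held 0.533% of all UMIs, and Cyp3a25 alone held 38.8% of theirs.

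Cytochrome P450 enzymes of these families sit in the endoplasmic reticulum of hepatocytes and oxidise drugs, environmental chemicals, steroids, retinoids and fatty acids, with electrons passed on by the reductase Por. Most lie in tandem arrays of closely related genes, and many are controlled by the nuclear receptors Nr1i2 and Nr1i3, by the aryl hydrocarbon receptor Ahr, or by sex-dependent growth hormone signals. In healthy liver, hepatocytes near the central vein are known to express many of them more strongly than those near the portal tract.

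Single-nuclei RNA sequencing (sNuc-Seq) libraries came from 1 male C57BL/6J mouse on a normal diet (ND) and 2 male C57BL/6J mice with metabolic dysfunction-associated steatohepatitis (MASH)-related liver fibrosis (STZ-HFHC 1 and STZ-HFHC 2). The STZ-HFHC mice had received 0.2 mg of streptozocin, a toxin of pancreatic beta cells, at 3 days of age, and from 4 weeks a high-fat and high-cholesterol diet that drew 41% of its kcal from fat and 43% from carbohydrate. The sources used here tie no age at collection to these livers, and each library was 1 mouse. The codes in the labels also differed between ND and STZ-HFHC, so a batch of unstated nature and the diet and toxin treatment cannot be told apart.

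After the filters on genes and mitochondrial counts, 8494, 8921 and 10921 nuclei of ND, STZ-HFHC 1 and STZ-HFHC 2 were kept of 9424, 9923 and 11642 barcodes. In 22 clusters, made without the 54 P450 symbols (Cyp2b genes and Cyp2c70 were not left out), 7 clusters were hepatocyte-like. They held 5406, 3008 and 4859 nuclei, with medians of 4024, 7721.5 and 6416 UMIs. Values given in 3s below are in the order ND, STZ-HFHC 1, STZ-HFHC 2. Nearly all ND hepatocyte-like nuclei were in clusters 2, 8 and 14, and most STZ-HFHC ones in clusters 1, 3 and 6. Only clusters 2 and 14 were named by hepatocyte markers at least 2-fold over the median of other clusters. Clusters 1, 3, 6, 8 and 22 had no such marker. They were named in a second step, set after the clusters had been seen. All 10 hepatocyte markers were found in this class in every library, at summed levels of 22080, 16180 and 18430 UMIs per 1000000 UMIs of the class (CPM), and so were lower in both STZ-HFHC mice. The T or NK cell markers, which include Themis, a leading gene of cluster 3, were at 34.9 CPM in ND hepatocyte-like nuclei and at 271.5 and 340.5 CPM in STZ-HFHC 1 and 2. Hepatocyte RNA was also found outside hepatocytes. Across 12 abundant hepatocyte genes used to gauge free RNA, the median level in endothelial-like nuclei was 0.890, 0.596 and 0.740 of that in hepatocyte-like nuclei. Pairs of libraries shared 29 to 32 barcodes.

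The genes stood in arrays in GRCm38 (mm10; GENCODE M21). The largest was that of 11 Cyp2c genes on chromosome 19, from Cyp2c55 (start 39007019) to Cyp2c50 (end 40113950), with Cyp2c23 farther along. Cyp2a4 (chr7:26307169-26315088), Cyp2a5 (chr7:26835305-26843548), Cyp2a22 (chr7:26931631-26939384), Cyp2a12 (chr7:27029081-27037375) and Cyp2f2 (chr7:27119909-27133660) lay in one region. The Cyp2j genes lay on chromosome 4, the Cyp3a genes on chromosome 5, the Cyp2d genes on chromosome 15, and Cyp1a1 and Cyp1a2 next to each other on chromosome 9. Closely related copies can lose reads that match more than 1 gene. Of the 90-base windows in the last 500 bases of their coding transcripts, 10.5% in Cyp2a4 and 10.1% in Cyp2a5 also occurred in another gene, compared with 15.3% in Cyp2d9, 14.2% in Cyp2d10 and 2.05% in Cyp3a25. The highest shares, 23.1% to 31.5%, were those of Cyp2c67, Cyp2c69, Cyp2c68 and Cyp2c40, whose levels are therefore less certain. Antisense genes overlapped Cyp2a4, Cyp2f2 and Cyp2u1, and the strand setting of the counting was not given in the sources used here.

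Promoters of 6 genes are shown because their genes moved together or stand for a class of regulation: these Cyp2a genes and Cyp1a1 were higher in STZ-HFHC, and Cyp2d9 and Cyp3a11 were lower. Each runs from 250 bases before to 50 bases after the start of a gene (RefSeq, GRCm38.p6). They are Cyp2a4 (chr7:26306942-26307241, plus strand), Cyp2a5 (chr7:26835089-26835388, plus), Cyp2a22 (chr7:26939337-26939636, minus), Cyp2d9 (chr15:82452127-82452426, plus), Cyp3a11 (chr5:145879805-145880104, minus) and Cyp1a1 (chr9:57697363-57697662, plus). Capitals mark TATAAA on either strand in the Cyp2a genes and Cyp2d9, CAAAGTCCA, a repeat of the kind bound by the hepatocyte factor Hnf4a, in Cyp3a11, and GCGTG, the core of the element bound by Ahr, in Cyp1a1.
Cyp2a4: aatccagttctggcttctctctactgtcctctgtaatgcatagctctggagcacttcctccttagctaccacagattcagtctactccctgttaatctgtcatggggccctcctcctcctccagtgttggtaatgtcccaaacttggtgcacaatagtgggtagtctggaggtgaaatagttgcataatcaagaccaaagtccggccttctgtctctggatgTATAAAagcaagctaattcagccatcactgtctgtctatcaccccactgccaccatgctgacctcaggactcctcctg
Cyp2a5: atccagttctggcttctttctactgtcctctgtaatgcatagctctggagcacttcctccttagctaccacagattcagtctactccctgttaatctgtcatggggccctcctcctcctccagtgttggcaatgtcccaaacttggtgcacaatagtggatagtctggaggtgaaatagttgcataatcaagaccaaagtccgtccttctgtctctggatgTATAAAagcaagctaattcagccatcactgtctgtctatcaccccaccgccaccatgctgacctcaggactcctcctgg
Cyp2a22: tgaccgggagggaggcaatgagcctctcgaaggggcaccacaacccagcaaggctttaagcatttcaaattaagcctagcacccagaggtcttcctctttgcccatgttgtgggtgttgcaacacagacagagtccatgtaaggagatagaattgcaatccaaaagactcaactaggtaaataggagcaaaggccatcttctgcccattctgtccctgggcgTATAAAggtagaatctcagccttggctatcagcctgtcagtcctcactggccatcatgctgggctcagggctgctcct
Cyp2d9: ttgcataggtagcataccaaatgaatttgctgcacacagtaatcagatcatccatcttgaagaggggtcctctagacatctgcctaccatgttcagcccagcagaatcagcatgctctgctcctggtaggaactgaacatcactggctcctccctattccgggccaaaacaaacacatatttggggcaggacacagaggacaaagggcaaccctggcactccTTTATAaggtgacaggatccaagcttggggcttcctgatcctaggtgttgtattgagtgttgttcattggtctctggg
Cyp3a11: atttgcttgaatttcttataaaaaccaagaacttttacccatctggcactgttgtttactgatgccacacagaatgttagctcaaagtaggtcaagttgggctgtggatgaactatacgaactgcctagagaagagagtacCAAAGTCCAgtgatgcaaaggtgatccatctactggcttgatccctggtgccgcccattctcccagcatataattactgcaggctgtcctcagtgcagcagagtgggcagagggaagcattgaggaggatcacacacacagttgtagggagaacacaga
Cyp1a1: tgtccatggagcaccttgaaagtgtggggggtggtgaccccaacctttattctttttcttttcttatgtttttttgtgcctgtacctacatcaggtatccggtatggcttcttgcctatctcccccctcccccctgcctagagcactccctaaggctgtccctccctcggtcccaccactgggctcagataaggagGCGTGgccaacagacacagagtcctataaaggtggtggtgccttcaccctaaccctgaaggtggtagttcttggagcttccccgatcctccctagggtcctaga
The windows of Cyp2a4 and Cyp2a5 were 97.7% identical over their alignment, whereas Cyp2a22 shared 58.9% with Cyp2a4 and 84.4% with Cyp2a12. The window of Cyp2d9 was 83.5% identical to that of Cyp2d10. TATAAA occurred in the windows of 21 of the 35 P450 genes with an entry (60%) and in 13.6% of all 32851 promoters. CAAAGTCCA occurred in 5 of them (14.3%), namely Cyp3a11, Cyp2c40, Cyp2c67, Cyp2c68 and Cyp2c69, and in 0.475% of all promoters. GCGTG occurred in 5 of them (14.3%), among them Cyp1a1 and Cyp1b1, and in 32.4% of all. These matches describe letters in the window and not sites. The P450 shares count genes, whereas the shares of all promoters count entries. Cyp2c40, Cyp2c67, Cyp2c68 and Cyp2c69 are closely related copies that share stretches of their transcript ends, so their matches may not be separate.

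Summed over the 40 genes, the level in hepatocyte-like nuclei was lower in both STZ-HFHC mice than in the ND mouse. It was 7801, 5516 and 4752 CPM, so that the STZ-HFHC mice had 70.7% and 60.9% of the ND level, and the mean log2 ratio to ND was -0.61 ± 0.15 (SD, n = 2 STZ-HFHC mice). The 10 hepatocyte markers were also lower in both mice (22080, 16180 and 18430 CPM), and their part in this result was not tested. No test of the condition was made, since ND was 1 mouse, and intervals given below cover counting error in UMIs only. The Cyp2c genes accounted for the largest part of the fall, with 1071 CPM less in the first STZ-HFHC mouse and 1547 CPM less in the second, and their share of the summed level went from 28% in ND to 20.2% and 13.4%. The Cyp3a genes held 809.5 and 963.9 CPM less and the Cyp2d genes 434.2 and 386.2 CPM less. In contrast, the Cyp2a genes held 336 and 234.9 CPM more than in ND. In endothelial-like nuclei, a class not known for most of these enzymes, the summed level was 5838, 3023 and 3058 CPM. These sums are shares of all UMIs of the class and do not give transcripts per nucleus. A lower share within hepatocytes and a different mix of hepatocytes cannot be told apart in them.

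Per length, Cyp3a25, a testosterone and drug hydroxylase, was the most abundant of the genes, with a mean of 71.8 CPM per kb of gene span over the libraries. It was followed by the ethanol-oxidising Cyp2e1 at 37.8 CPM per kb and by Cyp2d26 at 21.8 CPM per kb. Cyp2d10 (16.4), Cyp2f2 (15.4) and Cyp2a12 (15.3) came next on this scale. The annotated span of Cyp2d9, at 23.4 kb, takes in pseudogenes and begins before its promoter window. Its 6.58 CPM per kb and its place on this scale are therefore uncertain. Whether intronic reads were counted was not given, so the scale itself rests on an unstated setting. In CPM, Cyp3a25 stood at 2682, 2180 and 2120. It alone made up 34.4% of the summed level in ND and 39.5% and 44.6% in STZ-HFHC. The 10 genes with the highest mean CPM held 81.1% of the summed mean level.

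**Figure D1:**
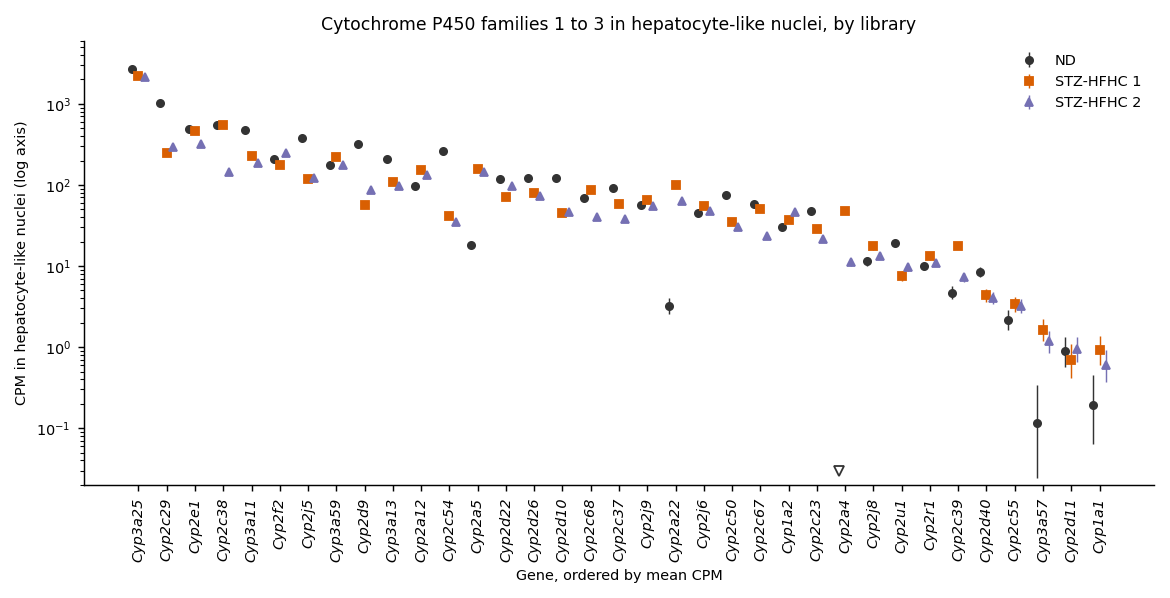
CPM (log axis) in hepatocyte-like nuclei for the 35 P450 genes with at least 50 UMIs there, ordered by mean, 1 point per library with its 95% Poisson interval. Levels span Cyp3a25, above 2000 CPM in every library, to Cyp1a1, below 1 CPM. The open triangle at the base marks Cyp2a4 at 0 UMIs in ND.

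Of the 40 genes, 35 had at least 50 UMIs in hepatocyte-like nuclei. Each STZ-HFHC mouse was compared with ND as a log2 ratio of CPM with 0.5 added to each count, and a gene passed the rule of size at 2-fold or more in the same direction in both mice. By this rule, 7 genes were lower and 5 higher in STZ-HFHC, and 23 were not past the rule. These were 20% and 14.3% of the 35 genes. Over all 14827 genes with at least 50 UMIs, 5.53% were lower and 8.46% higher. The share that was higher is not to be read against this background. Cyp1a1, Cyp3a57 and Cyp2a4, which had 5, 3 and 0 UMIs in ND, met the minimum of 50 only through the STZ-HFHC counts. Cyp1a1 and Cyp3a57 were no longer past the rule when either STZ-HFHC mouse was left out, because under 50 UMIs then remained. Their ratio in the remaining mouse was still past 2-fold. The median of the mean log2 ratio was -0.32 over the 35 genes and 0.09 over all genes. A further 7 of the 35 genes were at least 2-fold lower in 1 STZ-HFHC mouse only, and 1 was at least 2-fold higher in 1 only. No share over all genes stands beside these counts, so they are no result about the P450 genes.

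Among the genes that were lower, Cyp2c54, an arachidonic acid-metabolising enzyme of the Cyp2c array, differed most. Its level was 264.6 CPM in ND against 41 and 34.6 CPM in the STZ-HFHC mice, which made ND 6.45-fold (95% interval, 6.04 to 6.89) and 7.64-fold (7.19 to 8.13) higher. In the same array, Cyp2c29, the Cyp2c gene with the highest mean CPM over the libraries, stood at 1014, 245.6 and 296.2 CPM, a 4.13-fold and 3.42-fold higher level in ND. Cyp2c50 was at 74.5, 35.2 and 30.5 CPM. In all 3 genes the STZ-HFHC mice lay close to each other and far from ND, but for Cyp2c50 the interval of the first ratio, 1.96 to 2.29, reached below 2-fold. The other Cyp2c genes were less uniform. Cyp2c38, which neighbours Cyp2c29, was at 555.8, 545.8 and 143.4 CPM, so that 1 STZ-HFHC mouse stood at the ND level and the other far below it. Cyp2c67 split in the same way, with 57.9, 50.9 and 23.1 CPM. Cyp2c39, a retinoic acid hydroxylase, was at 4.71, 17.6 and 7.22 CPM, higher in both mice and past 2-fold in STZ-HFHC 1 only. Cyp2c55, at 2.18, 3.41 and 3.24 CPM, was higher in both by less than 2-fold. Cyp2c68 was at 69.8, 85.6 and 39.9 CPM and lay above ND in one STZ-HFHC mouse and below it in the other.

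Cyp2d9, a steroid hydroxylase known to be male-biased in mouse liver, was at 319.3 CPM in ND against 57.3 and 85.8 CPM in the STZ-HFHC mice. ND was 5.57-fold (95% interval, 5.27 to 5.89) and 3.72-fold (3.57 to 3.88) higher. Cyp2d10 followed with 123, 44.6 and 46.5 CPM. Both lay in the Cyp2d array on chromosome 15, where Cyp2d26 (121.9, 80.3 and 72.1 CPM) and Cyp2d22 (117.9, 70.5 and 96.4 CPM) were lower in both mice by less than 2-fold. Cyp2j5, an epoxygenase of arachidonic acid, was at 383.1, 117.9 and 122.4 CPM, 3.25-fold and 3.13-fold higher in ND. The other Cyp2j genes did not share this difference. Cyp2j6 was at 45.2, 55 and 48.2 CPM and Cyp2j9 at 56.9, 64.5 and 54.2 CPM, within 2-fold of ND in both mice.

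Cyp3a11, the main drug-inducible Cyp3a enzyme of mouse liver, was at 474.7 CPM in ND against 226.6 and 184.8 CPM in the STZ-HFHC mice. The level in ND was 2.1-fold (95% interval, 2.03 to 2.16) and 2.57-fold (2.49 to 2.65) higher. Among the other Cyp3a genes, Cyp3a13 was at 209.8, 109.2 and 97.2 CPM and Cyp3a59 at 178.5, 218.5 and 178 CPM. In endothelial-like nuclei, Cyp3a11 was at 249.4, 256.6 and 175.6 CPM and so did not show the same ratio to ND. For the other 6 genes that were lower, the ratio to ND in endothelial-like nuclei was negative in both mice, from -0.06 for Cyp2c50 in STZ-HFHC 2 to -3.12 for Cyp2c54 in STZ-HFHC 2 on the log2 scale. The part of free RNA in these values was not tested.

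The genes that were higher in STZ-HFHC were led by the Cyp2a array. Cyp2a4, a testosterone hydroxylase known to be female-biased in mouse liver, had no UMI in 5406 ND hepatocyte-like nuclei, and 1225 and 389 UMIs in STZ-HFHC 1 and 2. This was 47.5 and 11.2 CPM against a limit of 0.117 CPM that a count of 0 allows (3 UMIs in the ND library), at least 406-fold and 95.5-fold higher on that limit. With the counting error of both libraries, the lower 95% bounds were 330-fold and 77.3-fold. Its nearest relative Cyp2a5, a coumarin hydroxylase, was at 18.2 CPM (467 UMIs), 155.1 CPM and 145.5 CPM, 8.53-fold (95% interval, 7.75 to 9.41) and 8.01-fold (7.28 to 8.82) higher than in ND. Thus the Cyp2a5 levels of the STZ-HFHC mice were close, while their Cyp2a4 levels differed. Cyp2a22 was at 3.23, 100.7 and 63.9 CPM, 31.2-fold (25 to 39.3) and 19.8-fold (15.9 to 24.9) higher. The 4th gene of the array, Cyp2a12, was at 96.8, 151 and 132.6 CPM and within 2-fold of ND. Cyp2a4, Cyp2a5 and Cyp2a22 were also higher in endothelial-like nuclei of both STZ-HFHC mice, where Cyp2a5 was at 6.24, 87.8 and 94.9 CPM. Cyp2a12 went the other way there, with log2 ratios to ND of -0.58 and -0.50. After each nucleus had been thinned to 1000 UMIs, 1.91%, 13.9% and 12.7% of the hepatocyte-like nuclei had a Cyp2a5 UMI (6.55%, 50.7% and 42.1% without thinning). In endothelial-like nuclei, which should lack the gene, the thinned shares were 0.913%, 7.29% and 9.29%.

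The remaining genes that were higher had few UMIs. Cyp3a57 had 3, 42 and 41 UMIs in hepatocyte-like nuclei, a 13.9-fold (95% interval, 4.45 to 70.3) and 10.1-fold (3.21 to 50.8) higher level in STZ-HFHC. Cyp1a1, the classical target of Ahr, had 5, 24 and 21 UMIs, 4.78-fold (1.79 to 16) and 3.09-fold (1.14 to 10.5) higher. After thinning to 1000 UMIs per nucleus, and within either outer zone group defined below, neither gene was past the rule. After thinning, Cyp3a57 had a UMI in 2, 6 and 7 nuclei and Cyp1a1 in 1, 2 and 0. In either zone group, both genes had under 50 UMIs. With so few UMIs, these runs cannot decide on the 2-fold difference. Both intervals for Cyp1a1 reached below 2-fold, and its 50 UMIs met the minimum exactly. The other Ahr targets did not pass the rule. Cyp1a2, the caffeine-oxidising enzyme, was at 30.1, 36.8 and 47 CPM, and Cyp1b1 had 1, 2 and 2 UMIs.

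Several genes stayed within 2-fold of ND in both mice. Cyp2e1 was at 494.7, 465.2 and 317.2 CPM, Cyp2f2, an enzyme of naphthalene activation, at 210.4, 175.6 and 250 CPM, and Cyp2r1, which takes the first step of vitamin D activation, at 10, 13.2 and 11 CPM. Of the 7 female-biased genes looked at, only Cyp2a4 had more than 50 UMIs in hepatocyte-like nuclei. Cyp2c40 had 8, 18 and 6 UMIs there and Cyp2c69 had 11, 11 and 23. Cyp3a16, Cyp3a41a, Cyp3a41b and Cyp3a44 had 6 to 17 UMIs over all barcodes and were not among the 40 genes.

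**Figure D2:**
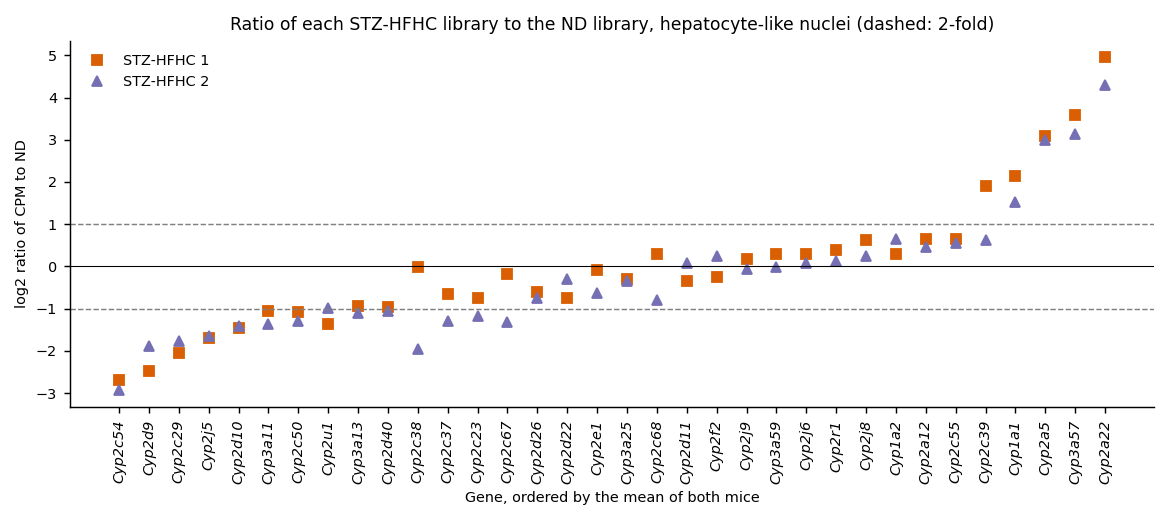
Log2 ratio of CPM to ND for each STZ-HFHC library in hepatocyte-like nuclei, ordered by the mean of both mice, for 34 P450 genes (Cyp2a4 left out, with 0 UMIs in ND); dashed lines mark 2-fold. Cyp2c54 lies lowest and Cyp2a22 highest, and the points of Cyp2c38 lie far apart.

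Among 26 fixed partners and regulators of P450 enzymes, 2 were higher, 1 was lower, 22 did not pass the rule and 1 had under 50 UMIs. These counts are near the shares over all genes (8.46% higher and 5.53% lower) and are no result about the list. The constitutive androstane receptor gene Nr1i3 was the one that was lower, at 635.6, 174.8 and 197.8 CPM. The haem oxygenase gene Hmox1, which breaks down the P450 cofactor, was higher at 2.33, 15.7 and 15.7 CPM (log2 ratios 2.74 and 2.73). Nfe2l2, a regulator of oxidative stress genes, was higher at 235.5, 510.5 and 471.5 CPM, with the ratio in STZ-HFHC 2 (log2 1.00) just at the limit. The electron donor Por was at 391, 990.7 and 704.7 CPM, past 2-fold in STZ-HFHC 1 only. Ahr (137.8, 137.6 and 124.4 CPM) and the pregnane X receptor gene Nr1i2 (259.4, 303.2 and 355.9 CPM) were within 2-fold. Cux2, a transcription factor known to be female-biased in liver, split the STZ-HFHC mice at 2.45, 17.4 and 1.26 CPM.

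To place the genes along the lobule, hepatocyte-like nuclei of each library were ranked by a score of 11 pericentral minus 11 periportal genes, without any P450 gene, and cut into 3 equal groups. UMIs were summed per library and group and tested with edgeR's quasi-likelihood test with the library as a term (3 libraries in pairs). Of the 33 P450 genes that could be tested, 15 (45.5%) were higher in the pericentral group, 7 (21.2%) in the periportal group, and 11 were not called at an adjusted p under 0.05. Over all 13485 genes tested, 5.24% were higher in the pericentral group and 4.38% in the periportal group. The median log2 difference, pericentral minus periportal, was 0.60 over the 33 genes and 0.00 over all genes. All values here are log2 differences with their standard error, and p-values are adjusted over all genes. Without STZ-HFHC 1 the counts were 11 and 3, and without STZ-HFHC 2 they were 10 and 3. Calls over all genes fell as well, from 707 pericentral and 590 periportal with all libraries. They were 282 and 230 of 13773 without STZ-HFHC 1, and 172 and 144 of 13538 without STZ-HFHC 2. Without the hepatocyte-like clusters named by zone genes, 8 pericentral and 3 periportal genes were called, beside 208 and 212 of all 12660 genes tested. The calls lost there were those of Cyp2c37, Cyp2c50, Cyp2c54, Cyp2c68, Cyp2d9, Cyp2r1 and Cyp3a11 on the pericentral side and of Cyp2d26, Cyp2j6, Cyp2j8 and Cyp2j9 on the periportal side.

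The pericentral genes were mainly of the Cyp2c array (8 of 10 tested). Cyp2c38 had the largest difference, at 1099 CPM in the pericentral and 125.2 in the periportal group of ND, 1133 and 116.3 in STZ-HFHC 1, and 361.2 and 20.7 in STZ-HFHC 2 (3.42 ± 0.19, adjusted p = 0.00033, edgeR). Cyp1a2 fell in the same direction in every library, from 66.5 to 9.91 CPM in ND, from 80.5 to 9 in STZ-HFHC 1 and from 110.4 to 11.1 in STZ-HFHC 2 (3.02 ± 0.12, adjusted p = 9.6e-05, edgeR). Its regulator Ahr was also pericentral (1.83 ± 0.07, adjusted p = 9.6e-05, edgeR). Cyp2e1 went from 866.8 to 201.9 CPM in ND, from 837.2 to 172.6 in STZ-HFHC 1 and from 595.5 to 109.7 in STZ-HFHC 2 (2.21 ± 0.08, adjusted p = 9.6e-05, edgeR). Of the other Cyp2c genes called, Cyp2c29 was at 1658, 479.5 and 635.4 CPM in the pericentral and 418.5, 93.5 and 74.9 CPM in the periportal group (2.40 ± 0.19). Cyp2c39 was at 9.21, 31.4 and 15.2 CPM against 1.85, 6.56 and 1.09 CPM (2.61 ± 0.27). Cyp2c37, at 92.2, 59 and 37.6 CPM over all hepatocyte-like nuclei, had 183.4, 107.6 and 69.1 CPM against 31.9, 32.1 and 20.2 CPM (1.95 ± 0.17). In these 3 genes the pericentral level was the higher one in every library. The same held for Cyp2c50, with 125.8, 62.3 and 53.3 CPM against 37.3, 19.3 and 17.4 CPM (1.62 ± 0.08), and for Cyp2c67, with 74.6, 70.8 and 38 CPM against 39, 31.3 and 10.8 CPM (1.22 ± 0.15). Cyp2c54 was at 397.5, 65.5 and 56.5 CPM against 142.6, 31.9 and 24.1 CPM (1.2 ± 0.10), so that its periportal level in ND exceeded the pericentral level of both STZ-HFHC mice. Cyp2c68 (0.68) completed the Cyp2c genes called, and its call was lost without either STZ-HFHC mouse. The exceptions among those tested were Cyp2c23, at -0.12 ± 0.09, and Cyp2c55, at 0.63 ± 0.20, which did not pass the test.

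Cyp2a5 was pericentral, at 43.3 and 4.46 CPM in the pericentral and periportal groups of ND, 242.8 and 82.1 in STZ-HFHC 1 and 279.7 and 48 in STZ-HFHC 2 (2.22 ± 0.27, adjusted p = 0.0056, edgeR). The periportal group of both STZ-HFHC mice therefore held more Cyp2a5 than the pericentral group of ND, by little in STZ-HFHC 2. Without STZ-HFHC 2, Cyp2a5 no longer passed the test. Cyp2a22 was called in the same direction (1.35 ± 0.14), with 5.6, 141 and 103.5 CPM in the pericentral and 2.18, 64.7 and 30.6 CPM in the periportal group. In contrast, Cyp2a4 was at 41.3 and 36.8 CPM in STZ-HFHC 1 and 9.64 and 9.78 CPM in STZ-HFHC 2, with no difference called (0.02 ± 0.13). Cyp2a12 was not called over the 3 libraries (-0.57 ± 0.31). Its level in ND was 48.9 CPM in the pericentral and 152.2 in the periportal group, and in STZ-HFHC it was 132.9 and 151.8 in the first mouse and 138.2 and 119.4 in the second. Thus Cyp2a12 was graded in ND and nearly level in STZ-HFHC, a difference that was not tested.

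Cyp3a11 was higher in the pericentral group in every library, with 755.4 and 241.7 CPM in ND, 311.4 and 170.2 in STZ-HFHC 1 and 255.6 and 146.3 in STZ-HFHC 2 (1.04 ± 0.17, adjusted p = 0.017, edgeR). Leaving out either STZ-HFHC mouse ended this call. Cyp3a25, the most abundant gene, was nearly level in all libraries (-0.02 ± 0.10), as was Cyp3a59 (-0.01 ± 0.11). Cyp2d9 (0.76 ± 0.11) and Cyp2r1 (0.60 ± 0.13) were pericentral as well, and both calls were lost without either STZ-HFHC mouse.

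Cyp2f2 was the most strongly periportal of the genes, at 61.8 and 391.2 CPM in the pericentral and periportal groups of ND, 31.5 and 365.2 in STZ-HFHC 1 and 46.5 and 448.4 in STZ-HFHC 2 (-3.21 ± 0.17, adjusted p = 0.00031, edgeR). The 4 Cyp2j genes were all called periportal with smaller differences. Cyp2j5 was at 303.1 and 460.4 CPM in ND, 83 and 151.3 in STZ-HFHC 1 and 91 and 152.4 in STZ-HFHC 2 (-0.80 ± 0.08, adjusted p = 0.0026, edgeR). Cyp2j8 (-0.85 ± 0.19), Cyp2j9 (-0.68 ± 0.09) and Cyp2j6 (-0.54 ± 0.11) pointed the same way, together with Cyp3a13 (-0.83 ± 0.09) and Cyp2d26 (-0.33 ± 0.06). The calls of Cyp2j8, Cyp2j9, Cyp2j6 and Cyp2d26 were lost without either STZ-HFHC mouse.

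**Figure D3:**
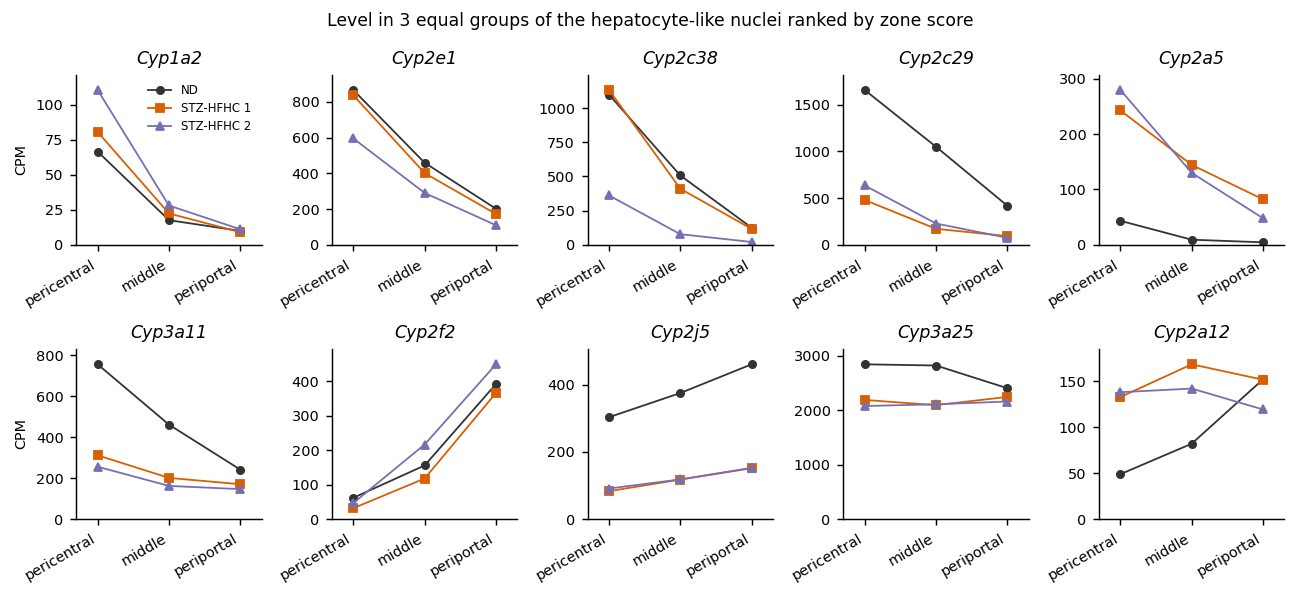
CPM in the pericentral, middle and periportal groups of hepatocyte-like nuclei for 10 P450 genes, 1 line per library. Cyp1a2, Cyp2e1 and Cyp2c38 fall toward the portal side and Cyp2f2 rises in all 3 libraries, while Cyp2a12 rises from 48.9 to 152.2 CPM in ND and stays between 119.4 and 168.6 CPM in STZ-HFHC.

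**Figure D4:**
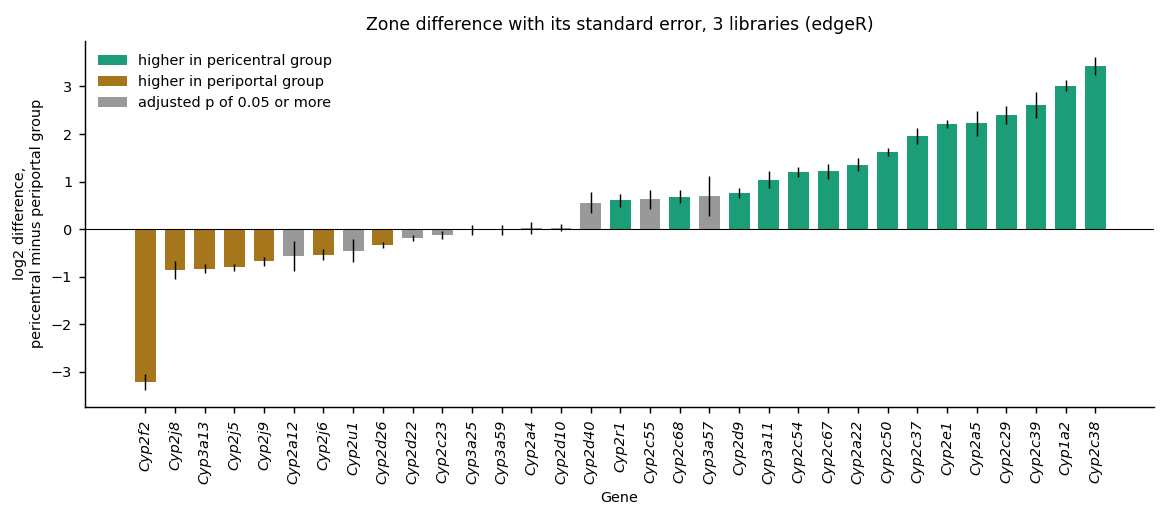
Log2 difference between the pericentral and periportal groups for the 33 P450 genes tested, with the standard error over 3 libraries (edgeR); bars above 0 are higher in the pericentral group. Cyp2c38 (3.42) and Cyp2f2 (-3.21) lie at the ends.

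Of the 7 genes that were lower in STZ-HFHC, 5 were pericentral (Cyp2c29, Cyp2c50, Cyp2c54, Cyp2d9 and Cyp3a11), Cyp2j5 was periportal and Cyp2d10 (0.04 ± 0.07) was not called. Over all 33 P450 genes tested, 45.5% were pericentral, and so were 2 of the higher genes (Cyp2a5 and Cyp2a22). The overlap was not tested. Within the pericentral group alone, the same 7 genes were lower. Within the periportal group alone, 5 of the 7 were still past 2-fold in both mice, and Cyp2c50 and Cyp3a11 were not. Of the 25 partners and regulators tested, 7 were higher in the pericentral group (Ahr, Nr1i3, Hmox1, Cyb5a, Cyb5b, Nfe2l2 and Rxra), 3 in the periportal group (Hnf4a, Onecut1 and Cux2), and 15 were not called. Over all genes tested, the shares were 5.24% pericentral and 4.38% periportal. Among the partners, Nr1i3 differed by 0.94 ± 0.12 and the electron donor Cyb5a by 0.82 ± 0.08.

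Outside hepatocyte-like nuclei, few P450 genes exceeded the level of free hepatocyte RNA. A gene was taken as above free RNA when the lower 95% bound of its ratio to hepatocyte-like nuclei exceeded the median ratio of the 12 free-RNA genes in every library that had at least 20 nuclei of the class. Of the 31 P450 genes with at least 50 UMIs in such a class, 3 passed, beside 58.9% of all 12385 genes. Cyp2u1, a fatty acid hydroxylase, passed in stellate or fibroblast-like nuclei, with ratios of 1.01, 1.25 and 1.12 to hepatocyte-like nuclei beside free-RNA medians of 0.824, 0.562 and 0.618. The margin was narrow, since its lower bound in ND was 0.829. Cyp2d22 passed in the same class by a narrow margin too, with 1.01, 0.700 and 0.714, the lower bound in STZ-HFHC 1 (0.563) being next to the median (0.562). Cyp3a11 passed in macrophage-like nuclei of the 2 STZ-HFHC mice (0.972 and 0.935, beside 0.583 and 0.842), and ND had too few such nuclei (17) to count. Its lower bound was above the median in both STZ-HFHC mice in endothelial-, B cell-, T or NK cell- and cholangiocyte-like nuclei too. These classes failed through ND, with a ratio of 0.525 beside 0.890 in endothelial-like nuclei. The pass was therefore not particular to macrophage-like nuclei. No P450 gene passed when the highest free-RNA gene was used in place of the median, and without ND 5 genes passed (Cyp2d9 and Cyp2d10 with the 3 above). Clusters 7, 10, 17, 18, 20 and 21 had no name and were not used.

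Cyp1b1, an Ahr target known from cells other than hepatocytes, had too few UMIs for this rule. In endothelial-like nuclei it had 1, 13 and 15 UMIs, or 0.136, 7.32 and 8.84 CPM, compared with 0.0389, 0.0775 and 0.0573 CPM in hepatocyte-like nuclei. Stellate or fibroblast-like nuclei had 0, 7 and 1 UMIs. Median depth in endothelial-like nuclei was 5278 UMIs in ND and 1644 and 1617.5 in STZ-HFHC.

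**Figure D5:**
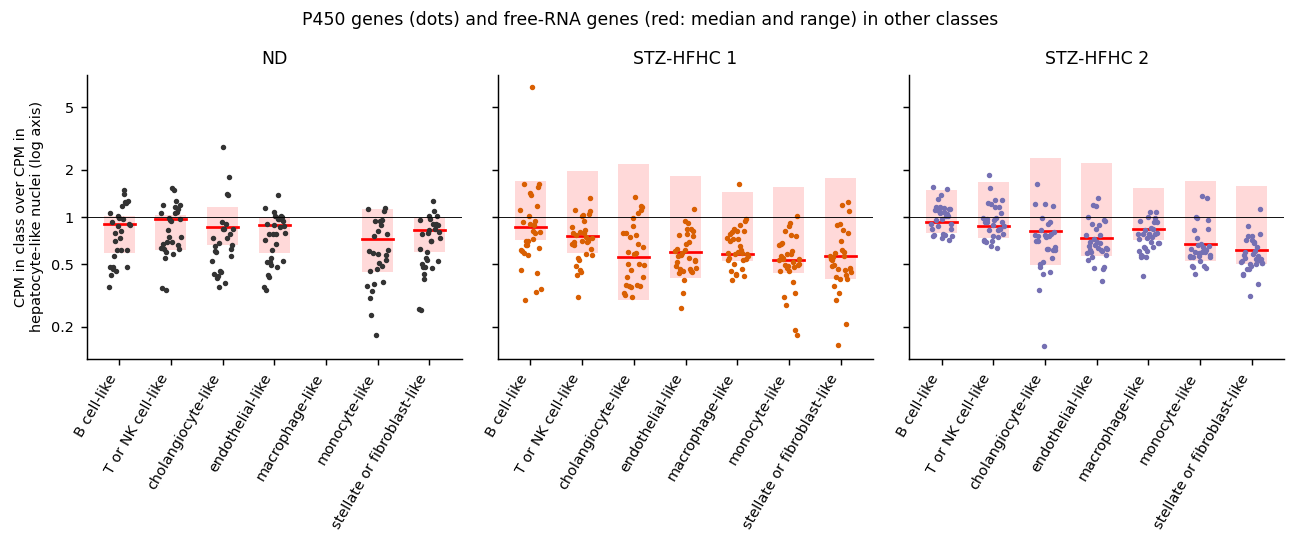
Ratio of CPM in each other class to CPM in hepatocyte-like nuclei (log axis), 1 dot per P450 gene with at least 50 UMIs in both together and a ratio above 0, by library; red lines and bands give the median and range of 12 free-RNA genes. Most dots lie within or near the bands, and macrophage-like nuclei are not shown for ND, which had 17.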

How the data were processed

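The authors deposited raw UMI counts per gene and barcode, made with Cell Ranger 7.0.1 on mm10 per the labels, from 10x 3′ libraries of nuclei. Use of intronic reads and strand was not given in the sources used here. The files held 30989 barcodes, which is also the number of cells the study gives after its filter, and that filter (at least 200 and at most 5000 genes, at most 5% mitochondrial counts, genes in at least 3 nuclei) left 28336 here. Total UMIs were 77617520, 73942732 and 72934861 in the order ND, STZ-HFHC 1, STZ-HFHC 2.

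Nuclei were clustered with Scanpy 1.11.5 and leidenalg 0.10.2 (2000 variable genes, 30 principal components, 15 neighbors, resolution 1) without batch correction. The 54 P450 symbols, and zone and free-RNA genes that were no markers, were left out. A cluster was named by markers at least 2-fold over the median of other clusters. A second step, set after the clusters had been seen, named clusters hepatocyte-like by at least 7 of 10 markers at 1.2 times other named clusters, or by at least 3 zone genes (clusters 3 and 8). Doublets were scored with Scrublet and kept. Its threshold marked 1 nucleus, which did not work, so the highest 8% of scores were left out as an alternative.

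Counts were summed per library and class. Intervals are exact Poisson for levels and exact conditional binomial for ratios, at 95%, and cover counting error only. The outer zone groups were tested with edgeR 4.0.16 (trimmed mean of M values, adjusted p under 0.05) and, as an alternative, DESeq2 1.42.0 in R 4.3.3. The scripts were tested on simulated data. The genes, partner list and zone lists were chosen with earlier results of these data known. All 40 genes were eligible to be named. Those with full values were the 12 highest, those past the rule of size, those called at 2-fold or more between zone groups and those above free RNA. All other genes, such as Cyp2j6 and Cyp1b1, were named beside them as members of the list.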

Additional observations from a re-analysis of the deposited data

Results flagged for a closer look

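The genes Cyp3a25 and Cyp2c23 had a zone difference of one sign in the ND mouse and of the other sign in both STZ-HFHC mice. The log2 ratio of the pericentral to the periportal group of Cyp3a25 was 0.242 in ND against -0.0364 and -0.057 in the STZ-HFHC mice. For Cyp2c23 it was 0.0473 in ND against -0.123 and -0.103. The difference between ND and STZ-HFHC was not tested, and all of these values are under 1.2-fold.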

How the results depend on the processing

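No P450 gene called by the rule of size or by the zone test changed its direction under any alternative run. Of the P450 genes past the rule of size, 3 were higher after thinning to 1000 UMIs and 3 in the periportal group alone, and 1 was lower at 4-fold. Over all genes, these counts were 595, 732 and 117. Leaving out 1 STZ-HFHC mouse gave 3 to 4 genes higher and 8 to 13 lower, with 13 lower without STZ-HFHC 1. The rule then asks for 2-fold in 1 mouse only. Over all genes, 1264 were higher and 1017 lower without STZ-HFHC 1, and 1565 and 1665 without STZ-HFHC 2. With both mice these were 1255 and 820. Cyp1a1 was lost with all barcodes, after thinning, at resolution 2, in either zone group alone, at 4-fold, without the clusters named by zone genes and without either STZ-HFHC mouse. Cyp3a57 was lost after thinning, in either zone group alone and without either STZ-HFHC mouse. With trimmed mean factors the median ratio of all genes moved by -0.10, and Cyp2d40, Cyp2u1 and Cyp3a13 were also lower. The summed level had a mean log2 ratio of -0.83 with all barcodes, where only 502 ND nuclei were hepatocyte-like, and of -0.43 in the periportal group. In the zone test, 1 gene each way was called with no replicate block, that is without the library as a term. Over all genes, 18 were pericentral and 11 periportal in that run. Leaving out 1 library gave 10 to 18 pericentral and 3 to 7 periportal genes. Over all genes these runs called 172 to 1360 pericentral and 144 to 1178 periportal genes, against 707 and 590 with all libraries. Periportal genes numbered 4 with pericentral genes alone in the score and 4 after thinning, beside 439 and 368 over all genes. Without the clusters named by zone genes, an alternative added after seeing the data, 8 pericentral and 3 periportal genes were called. All of them were also called with these clusters. Over all 12660 genes tested in that run, 208 were pericentral and 212 periportal. Genes above free RNA numbered 0 against the highest free-RNA gene, 1 without the highest doublet scores (Cyp2d22), 1 at resolution 0.5 (Cyp2u1), and 2 to 5 when 1 library was left out. The ND library had no replicate, and depth limits genes with few UMIs such as Cyp1a1, Cyp3a57 and Cyp1b1. The cause of these changes was not tested.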
